A study of Mus musculus with 44 samples.

Results

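The Schlafen genes of the mouse were followed through 12 groups of cultured peritoneal macrophages. Members were the rows of the deposited count table whose gene symbol was Slfn1, Slfn2, Slfn3, Slfn4, Slfn5, Slfn8 or Slfn9, which gave 7 members among 46078 genes. All 7 passed the filter on low counts and were among the 14537 genes tested. The macrophages came from C57BL/6 mice, were drawn into the peritoneal cavity by thioglycolate and were selected by adherence, and every culture descended from 1 isolate pooled from several mice, so a p-value below measures the spread between cultures and not between animals. There were LPS cultures (100 ng/mL), cultures given an extract of H9c2 cells (10 µg/mL), a rat cardiac myoblast line, IL-4 cultures (10 ng/mL) and unstimulated control cultures, each taken after 8, 24 or 72 h. Every group held 4 libraries except extract at 24 h and extract, IL-4 and control at 72 h, which held 3. No source used here gives the sex or age of the mice.

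Schlafen proteins share a core that folds like a nuclease, and members of the family act on transfer RNA and on growth of immune cells. The short forms Slfn1 and Slfn2 consist of little more than this core, Slfn3 and Slfn4 are of middle length, and the long forms Slfn5, Slfn8 and Slfn9 add a helicase-like part. Many members are interferon-stimulated genes in macrophages and T cells, and loss of Slfn2 in the mouse ends the quiescence of T cells and monocytes.

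The 7 genes lie on chr11:82951349-83215154 (GRCm38), a stretch of 263.8 kb, in the order Slfn5, Slfn9, Slfn8, Slfn2, Slfn1, Slfn4 and Slfn3. Slfn9 and Slfn8 are transcribed from the minus strand and the others from the plus strand, and the pseudogene Slfn10-ps lies between Slfn8 and Slfn2. The family is repetitive. Of the 47-base exon words that a 50-base read less the 3 clipped bases can hold, 0.77% of those of Slfn1 and 4.82% of those of Slfn2 also occur in another annotated gene, against 11.4% for Slfn5, 12.6% for Slfn4, 13.2% for Slfn9, 16% for Slfn8 and 18% for Slfn3. Slfn8 and Slfn9 share such words with each other and with Slfn10-ps, and Slfn3 and Slfn4 share them with each other and with Gm11427, so the values of these genes are uncertain to that extent. Most of the shared words of Slfn5 lie in its antisense partner. That gene, Slfn5os, overlaps Slfn5 over 8.84% of its exon bases. No source used here gives the strand setting of the counting, so reads from those bases cannot be placed on a strand.

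The sequence upstream of each start held 1 of 2 short runs. RefSeq's promoter table (GRCm38.p6, 250 bases before to 50 after the annotated start) held all 7 members. Both strands were searched for the interferon-stimulated response element taken as GAAA, then NN, then GAAA, for the gamma-activated site TTCNNNGAA and for a kappa B site taken as GGG, then NN, then TTTCC. The response element was found upstream of the 3 long forms, at -155 to -146 for Slfn5, -48 to -39 for Slfn8 and -45 to -36 for Slfn9, counted from RefSeq's start, and 3.44% of all 32851 windows of this length held it. A second annotated start of Slfn8 has the same element at -136 to -127. The match of Slfn5 lies inside the gene as placed above, since that annotation starts Slfn5 at chr11:82951349 and RefSeq at chr11:82952102. The gamma-activated and kappa B letters were found in no member and in 8.3% and 1.63% of all windows. The 4 plus-strand genes at the other end of the cluster had none of these, but each had the run ACTTCCTGG, noticed on reading the sequences and then searched on both strands, at -74 to -66 for Slfn1, -55 to -47 for Slfn2, -42 to -34 for Slfn3 and -73 to -65 for Slfn4. It occurs in 0.843% of all windows and overlaps no other motif searched. The run was picked from these sequences, so finding it in all 4 genes is no test. These are matches of letters only. The 6 sequences below show the run in the genes with the largest LPS fold changes, Slfn1 and Slfn4, and in Slfn2, which rose most with extract at 8 h, and the response element in the long forms. They read 5′ to 3′ on the strand of the gene from 250 bases before RefSeq's start to the base before it. That of Slfn5 ends 118 bases before this start, because an annotated exon of the gene begins at the next base. Capitals mark the run ACTTCCTGG in the first 3 and the response element in the others. Their places are chr11:83116570-83116819, chr11:83064862-83065111 and chr11:83174936-83175185 on the plus strand for Slfn1, Slfn2 and Slfn4, chr11:82951852-82951984 on the plus strand for Slfn5, and chr11:83020811-83021060 and chr11:82991831-82992080 on the minus strand for Slfn8 and Slfn9.
Slfn1: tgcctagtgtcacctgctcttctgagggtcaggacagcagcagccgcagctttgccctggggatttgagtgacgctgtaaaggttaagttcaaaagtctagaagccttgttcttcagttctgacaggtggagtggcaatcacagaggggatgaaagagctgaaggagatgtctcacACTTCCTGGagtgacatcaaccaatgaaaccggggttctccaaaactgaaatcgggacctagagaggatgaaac
Slfn2: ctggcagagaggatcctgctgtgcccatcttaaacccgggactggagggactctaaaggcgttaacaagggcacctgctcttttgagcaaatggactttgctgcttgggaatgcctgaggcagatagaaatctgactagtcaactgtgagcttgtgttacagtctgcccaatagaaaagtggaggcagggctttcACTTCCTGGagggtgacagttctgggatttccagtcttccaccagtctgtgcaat
Slfn4: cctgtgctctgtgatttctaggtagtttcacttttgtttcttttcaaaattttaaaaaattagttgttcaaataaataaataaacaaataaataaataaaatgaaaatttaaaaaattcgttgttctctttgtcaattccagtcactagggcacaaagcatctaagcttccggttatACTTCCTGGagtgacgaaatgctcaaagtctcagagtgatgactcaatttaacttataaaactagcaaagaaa
Slfn5: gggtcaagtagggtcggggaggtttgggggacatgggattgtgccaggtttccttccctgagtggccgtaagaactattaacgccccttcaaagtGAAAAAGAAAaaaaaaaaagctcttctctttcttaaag
Slfn8: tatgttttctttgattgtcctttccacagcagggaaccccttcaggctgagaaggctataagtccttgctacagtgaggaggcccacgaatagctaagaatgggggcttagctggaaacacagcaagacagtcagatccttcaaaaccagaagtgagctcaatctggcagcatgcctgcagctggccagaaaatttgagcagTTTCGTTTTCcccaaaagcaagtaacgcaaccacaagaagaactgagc
Slfn9: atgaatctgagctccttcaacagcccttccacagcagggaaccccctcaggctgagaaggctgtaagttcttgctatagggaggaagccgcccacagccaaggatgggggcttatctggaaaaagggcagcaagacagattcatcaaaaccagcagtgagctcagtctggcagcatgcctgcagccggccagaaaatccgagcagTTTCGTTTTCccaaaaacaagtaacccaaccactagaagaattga

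Between 0.908 M and 26.6 M reads were counted on genes per library, and levels are given as CPM (reads per M reads on genes) after TMM scaling. The 7 members together held a mean of 5358 ± 338 CPM in LPS, 1208 ± 49.1 CPM in extract and 226.2 ± 39.6 CPM in IL-4 cultures at 8 h, against 347.3 ± 79 CPM in control cultures (SD, n = 4 each). All 8 macrophage markers were read in every group, with sums of 7900 to 30700 CPM per library. Lyz2 had the highest group means of them, 5310 to 24900 CPM. Others varied between groups, with group means of 157 to 1960 CPM for Adgre1 and 5.32 to 216 CPM for Fcgr1. Monocyte markers, almost all Ly6c2, summed to 212 to 368 CPM in LPS at 72 h, against 11.2 to 16.3 CPM in control at 72 h. The 7 neutrophil markers summed to 440 to 723 CPM in LPS at 72 h and 54.4 to 72.8 CPM in control at 72 h, nearly all from S100a8 and Mmp8, while Ly6g and Elane had group means of at most 0.52 and 0.178 CPM. The 6 mesothelial and fibroblast markers summed to 150 to 282 CPM in control at 72 h and at most 92.3 CPM in every other group. The 9 T and NK cell markers summed to 217 to 1420 CPM through Il7r, since no other one of them passed a group mean of 2.2 CPM. The part of any of these in the results was not tested. In such bulk samples a change in the share of cells that express a gene and a change in RNA per cell cannot be told apart.

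**Figure D1:**
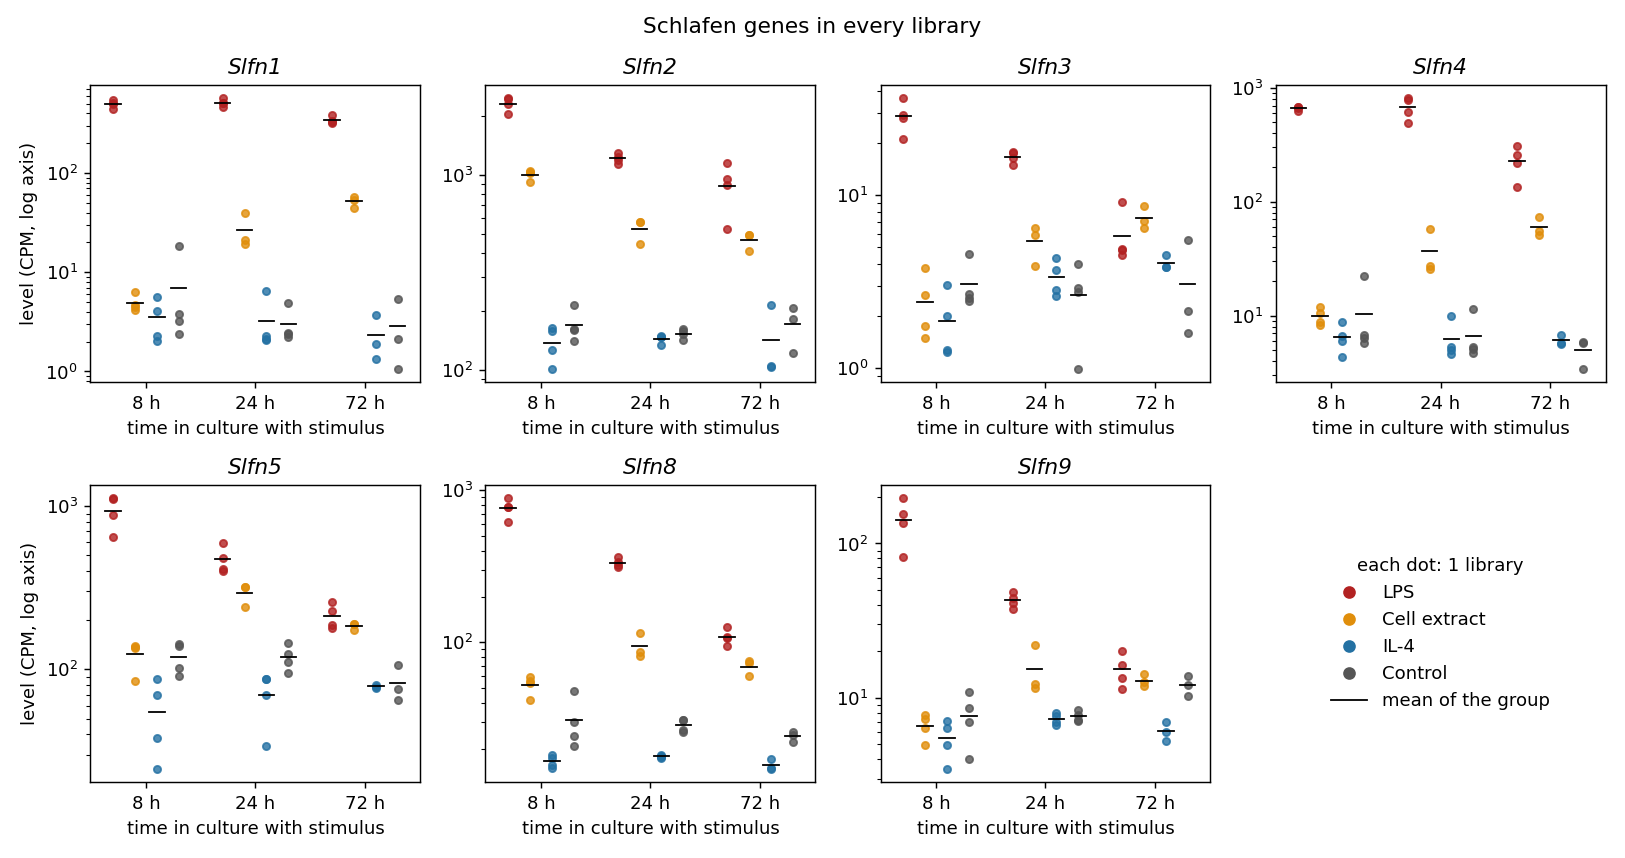
Level of each Schlafen gene in every library (CPM, log axis) by time, with LPS, extract, IL-4 and control cultures from left to right at each time. Dots are libraries and lines are group means; LPS libraries of Slfn1 sit at 318 CPM or more at all 3 times, and no other library of that gene exceeds 57.4 CPM.

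LPS raised the whole family at 8 and 24 h, and Slfn1 and Slfn4 by far the most. After 8 h Slfn1 was 73-fold and Slfn4 64.7-fold above control, Slfn8, Slfn9 and Slfn2 between 13.6-fold and 24.9-fold, and Slfn3 and Slfn5 9.31-fold and 7.88-fold. All 7 members passed at 8 h and at 24 h and 5 at 72 h, each time upward, where 21.3%, 18.6% and 16.1% of all tested genes rose and 24.1%, 19.3% and 15.4% fell (edgeR's quasi-likelihood test, Benjamini-Hochberg adjusted p under 0.05). The comparisons of LPS, extract and IL-4 with control at a given time share the same control libraries.

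Slfn1, a short form that halts growth of thymocytes when overexpressed, had 510, 443, 552 and 494 CPM in LPS libraries at 8 h, against 18.2, 2.39, 3.2 and 3.84 CPM in control libraries. The groups were far apart, although control replicate 1 stood well above the other controls. At 24 h the LPS libraries had 514, 508, 467 and 565 CPM and the controls 4.94, 2.46, 2.25 and 2.36 CPM, and at 72 h the LPS libraries had 384, 324, 318 and 336 CPM and the controls 1.06, 2.13 and 5.35 CPM. The log2 fold changes were 6.19 ± 0.42 at 8 h, 7.53 ± 0.46 at 24 h and 7.17 ± 0.57 at 72 h (SE), with edgeR adjusted p of 4.94e-16, 4.01e-17 and 2.04e-13. Without control 8 h replicate 1 the 8 h value was 7.37. All LPS libraries of Slfn1 lay between 318 and 565 CPM, and no control library passed 18.2 CPM. The control libraries at 72 h held only 5 to 10 reads each on Slfn1.

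Slfn4, a myeloid Schlafen gene known to be induced by Toll-like receptor ligands, followed closely at 8 and 24 h. Its LPS libraries had 668, 627, 680 and 673 CPM at 8 h, against 22.1, 6.31, 5.75 and 6.71 CPM in control libraries, and again control replicate 1 was the high one. Without it the log2 fold change at 8 h was 6.72. At 24 h they had 613, 807, 489 and 781 CPM against 11.4, 5.03, 4.67 and 5.29 CPM in controls. By 72 h the LPS libraries had 134, 219, 259 and 306 CPM, still above the 3.39, 5.69 and 5.89 CPM of the controls. Log2 fold changes were 6.02 ± 0.36, 6.77 ± 0.38 and 5.61 ± 0.45 at 8, 24 and 72 h, with edgeR adjusted p of 1.16e-17, 2.96e-18 and 2.22e-13.

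Slfn2, the short form needed for quiescence of T cells and monocytes, had the highest level per kb of the family in unstimulated cells. Its LPS libraries had 2465, 2046, 2310 and 2472 CPM at 8 h, against 216, 141, 161 and 162 CPM in controls. At 72 h they had 529, 894, 952 and 1150 CPM against 123, 183 and 208 CPM. The groups did not overlap at any of the 3 times, while the log2 fold change was 3.77 ± 0.21 at 8 h, 2.99 ± 0.21 at 24 h and 2.37 ± 0.23 at 72 h, with edgeR adjusted p of 3.35e-18, 1.97e-15 and 3.17e-11.

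With LPS the long forms, like Slfn2 and Slfn3, had their highest levels at 8 h. Slfn5, whose human counterpart takes part in interferon responses in the nucleus, had 879, 1104, 1117 and 643 CPM in LPS libraries at 8 h, against 143, 139, 102 and 90.6 CPM in controls, and its log2 fold change was 2.98 ± 0.27, 1.99 ± 0.26 and 1.35 ± 0.29 at 8, 24 and 72 h (edgeR adjusted p 2.41e-12, 3.32e-08 and 0.00023). Slfn8 had 779, 777, 887 and 622 CPM in LPS and 47.9, 30, 24.1 and 20.8 CPM in control libraries at 8 h, with log2 fold changes of 4.64 ± 0.18, 3.54 ± 0.17 and 2.17 ± 0.20 at the 3 times (edgeR adjusted p 7.26e-23, 1.01e-19 and 6.42e-12). Both genes had all LPS libraries above all controls at every time. Slfn9, the neighbour of Slfn8, had 137, 155, 196 and 81.9 CPM in LPS and 11, 6.99, 8.63 and 4.05 CPM in control libraries at 8 h, a log2 fold change of 4.23 ± 0.24, and 2.52 ± 0.23 at 24 h (edgeR adjusted p 2.02e-18 and 5.31e-12). At 72 h its LPS libraries had 20.2, 11.4, 16.3 and 13.4 CPM and overlapped the controls at 12.1, 10.3 and 13.9 CPM. The log2 fold change there was 0.26, with an interval of -0.32 to 0.84 at 95% and an edgeR adjusted p of 0.544.

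Slfn3, best known from growth and differentiation of rodent gut epithelium, had the lowest level per kb of the family in LPS cultures at 8 h. At 8 h its LPS libraries had 29, 27.8, 36.4 and 21.2 CPM, against 4.58, 2.69, 2.56 and 2.45 CPM in controls. Log2 fold changes were 3.22 ± 0.28 at 8 h and 2.56 ± 0.28 at 24 h (edgeR adjusted p 7.37e-13 and 6.47e-10). At 72 h the LPS libraries had 4.82, 4.49, 9.15 and 4.89 CPM and the controls 5.51, 2.13 and 1.61 CPM, so the groups overlapped (log2 fold change 0.75, edgeR adjusted p 0.126). Without control 72 h replicate 1, a library in which 26 reads lay on Slfn3, the 72 h value was 1.62 with an adjusted p of 0.013.

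**Figure D2:**
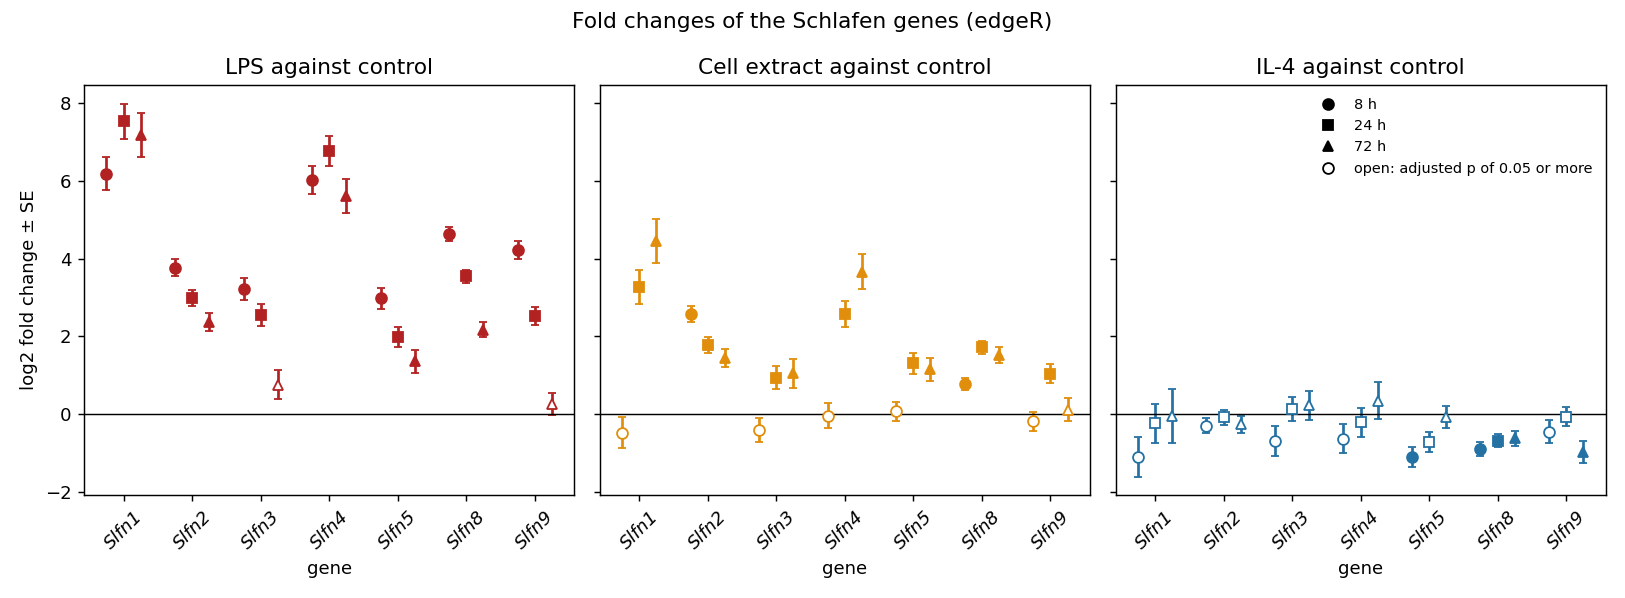
Log2 fold change (± SE, edgeR) of each Schlafen gene in LPS, extract and IL-4 cultures against control, with 8, 24 and 72 h as circle, square and triangle and open symbols for an adjusted p of 0.05 or more. With extract at 8 h Slfn2 stands at 2.56 and Slfn8 at 0.77 as the filled symbols, and with IL-4 every filled symbol lies below 0.

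The LPS effect itself differed with time for 5 of the 7 genes. As the difference of the log2 fold changes at 72 h and 8 h, it fell by 3.97 for Slfn9, 2.46 for Slfn8, 2.46 for Slfn3, 1.62 for Slfn5 and 1.40 for Slfn2 (edgeR adjusted p between 4.46e-11 and 0.000753), where 14.3% of all genes had an effect that fell and 15.7% an effect that rose. For Slfn1 the difference was 0.98 ± 0.71 (interval -0.46 to 2.42) and for Slfn4 -0.41 ± 0.54 (interval -1.51 to 0.70), and neither passed. These 2 values rest on the high control 8 h replicate 1, without which they were -0.20 and -1.11 and still did not pass, and Slfn4 passed when control 24 h replicate 1 was left out as well (-1.11, adjusted p 0.0413). The difference for Slfn3 had an adjusted p of 0.0625 without control 72 h replicate 1.

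The cell extract gave a different picture at 8 h, when it raised Slfn2 and little else of the family. Slfn2 had 1023, 1035, 1045 and 924.9 CPM in extract libraries, against 216, 141, 161 and 162 CPM in control libraries, which is 5.92-fold (log2 2.56 ± 0.20, edgeR adjusted p 2.29e-13). All extract libraries were above all controls and lay close together. Slfn8 had 56, 42, 54.1 and 59 CPM in extract and 47.9, 30, 24.1 and 20.8 CPM in control libraries, a log2 fold change of 0.77 ± 0.16 that passed (edgeR adjusted p 0.000193) although the lowest extract library was below the highest control. The other 5 members did not pass, so 2 of 7 rose, where 13.0% of all genes rose and 17.2% fell.

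The genes with the strongest LPS response were near control level in the same extract libraries. Slfn1 had 4.43, 4.16, 4.73 and 6.33 CPM in extract, against 18.2, 2.39, 3.2 and 3.84 CPM in control libraries (log2 fold change -0.48, interval -1.30 to 0.33, edgeR adjusted p 0.432). Slfn4 had 10.6, 8.83, 8.32 and 11.9 CPM in extract and 22.1, 6.31, 5.75 and 6.71 CPM in controls (-0.04, interval -0.69 to 0.61, adjusted p 0.962). The high control replicate 1 sets the sign of both, and without it the values were 0.69 for Slfn1 and 0.66 for Slfn4 with edgeR adjusted p of 0.109 and 0.0833. Slfn5, Slfn9 and Slfn3 had log2 fold changes of 0.07, -0.19 and -0.42 and edgeR adjusted p of 0.907, 0.658 and 0.361.

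By 24 h all 7 genes had risen with the extract, where 11.7% of all genes rose and 10.4% fell. Slfn1 had 19.1, 39.3 and 21.3 CPM in extract libraries, against 4.94, 2.46, 2.25 and 2.36 CPM in controls, a log2 fold change of 3.27 ± 0.43 (edgeR adjusted p 7.97e-08). Slfn4 had 25.4, 57.8 and 27 CPM in extract and 11.4, 5.03, 4.67 and 5.29 CPM in controls (2.58 ± 0.34, edgeR adjusted p 1.13e-07). In both genes replicate 3 was the high extract library and the groups stayed apart. Slfn2 had 443, 574 and 571 CPM in extract, against 153, 143, 161 and 158 CPM in controls (1.78 ± 0.21), and Slfn8, Slfn5, Slfn9 and Slfn3 had log2 fold changes of 1.72, 1.30, 1.04 and 0.94 with edgeR adjusted p from 1.55e-10 to 0.0188. Slfn3 was the only member whose groups overlapped, and it fell short without control replicate 1 (0.76, adjusted p 0.0689), without extract replicate 2 (0.88, adjusted p 0.068) and without extract replicate 3 (0.79, adjusted p 0.117). Slfn9 fell short without extract replicate 3 (0.68, adjusted p 0.0639).

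At 72 h 6 members were above control with the extract, where 14.2% of all genes rose and 12.2% fell. Slfn1 had 44.5, 57.4 and 53.9 CPM in extract, against 1.06, 2.13 and 5.35 CPM in controls (log2 fold change 4.45 ± 0.57, edgeR adjusted p 1.14e-07). Slfn4 had 54.9, 51.4 and 73.3 CPM in extract and 3.39, 5.69 and 5.89 CPM in controls (3.67 ± 0.44, edgeR adjusted p 3.38e-08). These were the highest extract levels of both genes. The controls held few reads, 5 to 10 per library on Slfn1 and 11 to 16 on Slfn4. Slfn8, Slfn2, Slfn5 and Slfn3 had log2 fold changes of 1.52, 1.45, 1.15 and 1.04 with edgeR adjusted p from 1.92e-07 to 0.0357, and Slfn9 did not pass (0.11, interval -0.48 to 0.71, adjusted p 0.835). The call of Slfn3 rested on few reads, 23 to 141 per extract library, and was lost without extract replicate 3 or 4, or control replicate 3 or 4 (log2 fold change 0.81 to 1.06, adjusted p 0.0704 to 0.174).

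The extract's effect at 72 h exceeded its effect at 8 h for Slfn1 by 4.93 ± 0.71 and for Slfn4 by 3.71 ± 0.55 on the log2 scale (edgeR adjusted p 1.59e-06 and 2.72e-06), and fell by 1.12 ± 0.30 for Slfn2 (adjusted p 0.00515). Without control 8 h replicate 1 the values were 3.76 for Slfn1 and 3.00 for Slfn4. The differences for Slfn3, Slfn5 and Slfn8, 1.46, 1.09 and 0.74, passed as well (edgeR adjusted p 0.0269, 0.0401 and 0.032). In all 5 rose and 1 fell, where 13.1% of all genes rose and 8.75% fell. Without control 8 h replicate 1, extract 8 h replicate 2 or control 72 h replicate 3, only Slfn1 and Slfn4 among them still rose, and extract 72 h replicate 3 gave the same count of 2.

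Compared directly at 8 h, the extract left every member below LPS, where 15.1% of all genes were lower. Slfn1 had 4.43 to 6.33 CPM in extract libraries and 443 to 552 CPM in LPS libraries, a log2 difference of -6.67 ± 0.43, and Slfn4 was lower by -6.06 ± 0.36 (edgeR adjusted p 4.11e-16 and 3.1e-17). For Slfn2 the difference was -1.21 ± 0.19 (adjusted p 3.3e-06), the smallest of the 7. Slfn9, Slfn8, Slfn3 and Slfn5 lay between, at -4.41, -3.86, -3.64 and -2.91. At 24 h 6 members were lower with extract, where 8.76% of all genes were lower and 8.06% higher, and Slfn5 did not pass (-0.68, edgeR adjusted p 0.0838). All extract libraries of Slfn5 were below all its LPS libraries at 24 h, and it passed with the compared groups alone (edgeR adjusted p 0.00274), with no filter (0.033), without the libraries under 2 M counts (0.0344) and by DESeq2 (0.0491). At 72 h 4 were lower, where 11.4% of all genes were lower. The 72 h differences were -2.72 for Slfn1, -1.94 for Slfn4, -0.92 for Slfn2 and -0.66 for Slfn8 (edgeR adjusted p 1.31e-06 to 0.00533). The call of Slfn8 was lost without extract 72 h replicate 2 (-0.56, adjusted p 0.0556). Slfn3, Slfn5 and Slfn9 stood at 0.29, -0.20 and -0.15 at 72 h and did not pass, with intervals of -0.34 to 0.92, -0.76 to 0.36 and -0.67 to 0.37.

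IL-4 raised no member at any time, and the genes it lowered were long forms. At 8 h Slfn5 had 69.4, 87.3, 37.9 and 24.7 CPM in IL-4 libraries, against 143, 139, 102 and 90.6 CPM in controls, and Slfn8 had 18.3, 15.6, 17.4 and 14.9 CPM against 47.9, 30, 24.1 and 20.8 CPM. All IL-4 libraries were below all controls in both genes. The log2 fold changes were -1.11 ± 0.26 and -0.89 ± 0.18 (edgeR adjusted p 0.0036 and 0.000596), so 2 of 7 fell, where 4.04% of all genes fell and 4.29% rose. When the 8 IL-4 and control libraries were fitted alone, neither passed (-1.07 and -0.85, adjusted p 0.0936 and 0.0847).

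Slfn8 stayed lower with IL-4 at the later times. It had 17.4, 17.7, 17.8 and 18.3 CPM in IL-4 libraries at 24 h, against 25.9, 30.9, 31 and 26.4 CPM in controls (-0.68 ± 0.17, edgeR adjusted p 0.00648), where 4.76% of all genes fell and 4.74% rose. At 72 h it had 14.8, 17.1 and 15 CPM in IL-4 and 25.7, 22 and 24.6 CPM in controls (-0.63 ± 0.20, edgeR adjusted p 0.0198). Slfn9 passed at 72 h with 6.03, 5.24 and 6.94 CPM in IL-4, against 12.1, 10.3 and 13.9 CPM in controls (-0.98 ± 0.29, edgeR adjusted p 0.0127), which made 2 of 7, where 10.5% of all genes fell and 13.2% rose. The groups did not overlap in any of these 3 comparisons, but the 72 h calls were lost without control replicate 1 (Slfn8 -0.56, adjusted p 0.0963, and Slfn9 -0.95, adjusted p 0.0582) and without control replicate 4 (Slfn8 -0.60, adjusted p 0.0557, and Slfn9 -0.88, adjusted p 0.0538). That of Slfn8 was also lost without IL-4 replicate 2 or 4 (adjusted p 0.0746 and 0.0666). Slfn5 had 33.8, 69.4, 87.7 and 87.4 CPM in IL-4 at 24 h and 124, 146, 111 and 95 CPM in controls, without overlap, and -0.73 with an edgeR adjusted p of 0.0661. The other values with IL-4 lay between -1.10 and 0.35 and did not pass. The lowest, that of Slfn1 at 8 h, was 0.08 without control 8 h replicate 1, and Slfn2 at 72 h, at -0.27, passed without IL-4 replicate 3 (-0.69, adjusted p 0.0232). For no member did the effect of IL-4 at 72 h differ from that at 8 h (edgeR, 0 of 7 passed, 1 at an unadjusted p under 0.05, and 0 by DESeq2), although Slfn5 passed without control 72 h replicate 1 or IL-4 8 h replicate 1 or 2 (adjusted p 0.0152 to 0.04) and Slfn3 without control 72 h replicate 1 (0.0436), where 9.51% of all genes rose and 6.57% fell.

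Time in culture alone passed for no member. Of the 7, 0 passed between 8 and 24 h or between 8 and 72 h in control cultures by edgeR and by DESeq2, and 2 and 3 had an unadjusted p under 0.05. At 24 h 0.323% of all genes were higher than at 8 h and 0.213% lower, and at 72 h 6.38% and 7.16%. The largest changes were in Slfn1, with -1.30 ± 0.43 at 24 h and -1.54 ± 0.61 at 72 h against 8 h (edgeR adjusted p 0.186 and 0.0877), and without control 8 h replicate 1 they were -0.13 and -0.36. Leaving out another library made calls at 72 h, of Slfn1 without control 8 h replicate 2 or 3 or control 72 h replicate 4 (adjusted p 0.0287, 0.0452 and 0.0481) and of Slfn4 without control 8 h replicate 3 (adjusted p 0.0431), and at 24 h of Slfn1 without control 8 h replicate 2 (adjusted p 0.0463). Slfn9 had 0.65 ± 0.28 at 72 h (adjusted p 0.113), which passed without control 8 h replicate 1 (0.88, adjusted p 0.0453), and its 3 control libraries then lay between 10.3 and 13.9 CPM.

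Per kb of exon, Slfn2 was the leading transcript in every group, and its share differed most from control in the LPS cultures and in extract at 8 h. The shares are of the summed CPM per kb of the 7 genes. Slfn2 held 93.8% ± 1.19 in extract at 8 h, 63.5% ± 3.45 in LPS and 82% ± 4.82 in IL-4, against 75.1% ± 4.53 in control cultures (SD, n = 4 each), and the libraries of extract at 92.5 to 95.4% did not overlap those of control at 71.1 to 79.9%, whereas those of IL-4 at 77.2 to 88.4% did. LPS libraries had lower shares than control without overlap at every time, at 50.4 to 57.2% against 70.8 to 78.5% at 24 h. Extract libraries overlapped control at 24 h (74.2 to 81.2%) and at 72 h (74 to 75.9% against 72.4 to 84.2%), and those of IL-4 at 24 h lay above control (79.6 to 83.1%). Slfn1 held 12.2%, 20.4% and 22.8% in LPS cultures at 8, 24 and 72 h and 0.412%, 3.37% and 7.45% in extract cultures, against 2.37%, 1.3% and 1.12% in controls. At 8 h Slfn2 had 1400 ± 120 CPM per kb in LPS cultures, and Slfn1, Slfn8, Slfn4 and Slfn5 had 268, 187, 167 and 148 CPM per kb. Slfn9 and Slfn3 were the lowest at 23.9 and 8.38 CPM per kb.

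**Figure D3:**
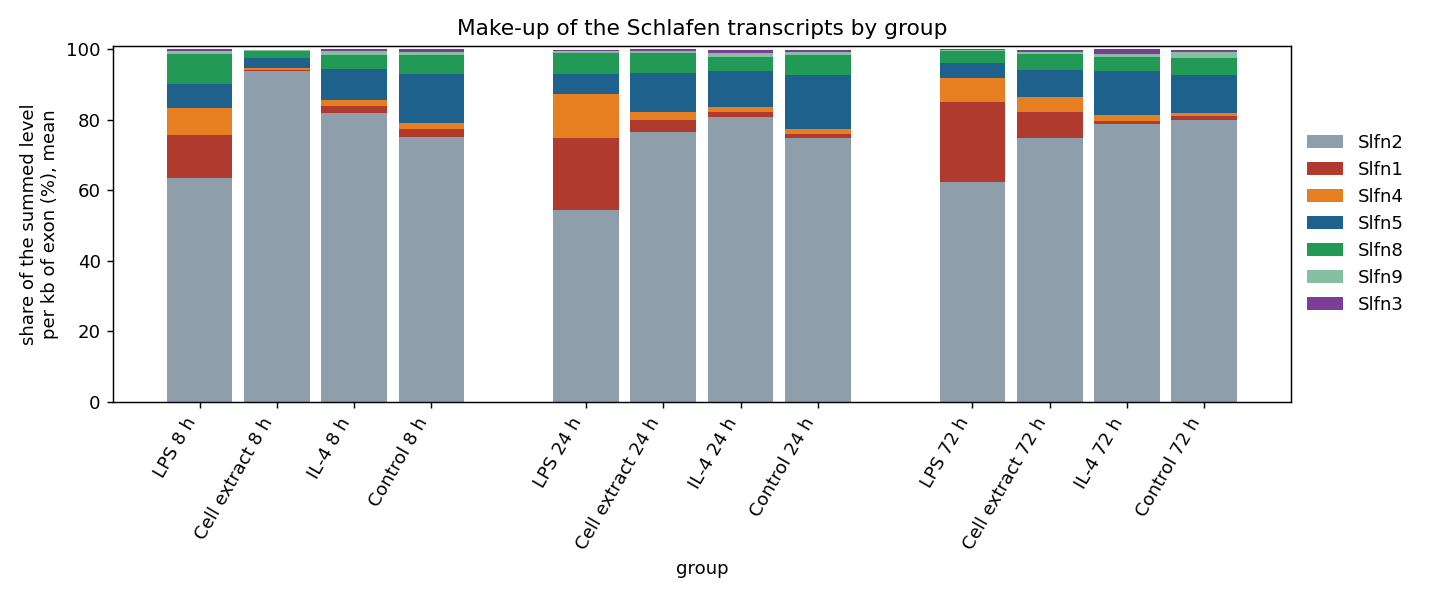
Share of each Schlafen gene in the summed level per kb of exon (%), as the mean over the libraries of each group, with LPS, extract, IL-4 and control from left to right at 8, 24 and 72 h. Slfn2 fills 93.8% of the extract bar at 8 h and 54.5% of the LPS bar at 24 h, where Slfn1 fills 20.4%.

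Ordered by mean level, the 12 groups fell into the same upper and lower parts for most members. The 3 LPS groups headed the order for Slfn1, Slfn4 and Slfn8, at 340.6 to 513.7, 229.3 to 672.8 and 109 to 766.4 CPM. For Slfn8 the spread of LPS at 72 h (109 ± 13.3 CPM) overlapped that of extract at 24 h (94.3 ± 18.2 CPM). For Slfn2 extract at 8 h, at 1007 ± 55.5 CPM, stood between LPS at 24 h (1221 ± 69.6 CPM) and LPS at 72 h (881.1 ± 259 CPM), and its spread overlapped that of LPS at 72 h. For Slfn5 extract at 24 h, at 293.7 ± 45.5 CPM, stood next after LPS at 24 h and ahead of LPS at 72 h (213.3 ± 37.5 CPM), again within the spread. Extract at 24 and 72 h stood apart from all control and IL-4 groups for Slfn1, Slfn2, Slfn4, Slfn5 and Slfn8, and for Slfn1 they also stood apart from each other. The control and IL-4 groups, and for Slfn1, Slfn4 and Slfn5 extract at 8 h, had spreads that overlapped those of their neighbours in the order for Slfn1, Slfn2, Slfn4 and Slfn5, as did all groups below LPS at 24 h for Slfn3 and Slfn9. For Slfn8 extract at 8 h stood apart from the groups below it, and all 3 IL-4 groups (15.65 to 17.8 CPM) stood below all 3 control groups (24.11 to 30.71 CPM). LPS at 8 and 24 h lay within each other's spread for Slfn1 and Slfn4 and apart for the other 5.

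Neighbouring members could differ at 8 h. Slfn2 and Slfn1, next to each other among the members, had log2 fold changes of 2.56 and -0.48 with extract. That of Slfn1 did not pass and was 0.69 without control 8 h replicate 1. The pseudogene Slfn10-ps, which shares 21.3% of its 47-base words with other genes, mostly Slfn8 and Slfn9, had 17.3 to 27 CPM in LPS and 10.9 to 18.7 CPM in control libraries at 8 h, a log2 fold change of 0.69 ± 0.19, and 1.23 and 1.11 at 24 and 72 h (edgeR adjusted p 0.0022, 5.89e-07 and 0.00027). It fell with IL-4 by 1.42 at 8 h and 0.94 at 24 h (edgeR adjusted p 3.64e-05 and 0.0013). Slfn14, beyond the cluster, had 0 to 9 reads per group and was not tested, and Slfn5os had no read in any library. Of 8 tested genes that flank the members, Rffl and AI662270 rose with LPS at 8 h (1.51 and 0.89, edgeR adjusted p 5.66e-06 and 0.00163) and Rad51d and AA465934 fell by 0.61 and 1.10 (adjusted p 0.00326 and 0.0237). These counts are near the shares of all genes, of which 21.3% rose and 24.1% fell. With extract at 8 h Rffl and Nle1 rose (1.16 and 1.14, edgeR adjusted p 0.000418 and 0.00137) and Rad51d fell by 0.51 (adjusted p 0.015), where 13.0% of all genes rose and 17.2% fell.

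**Figure D4:**
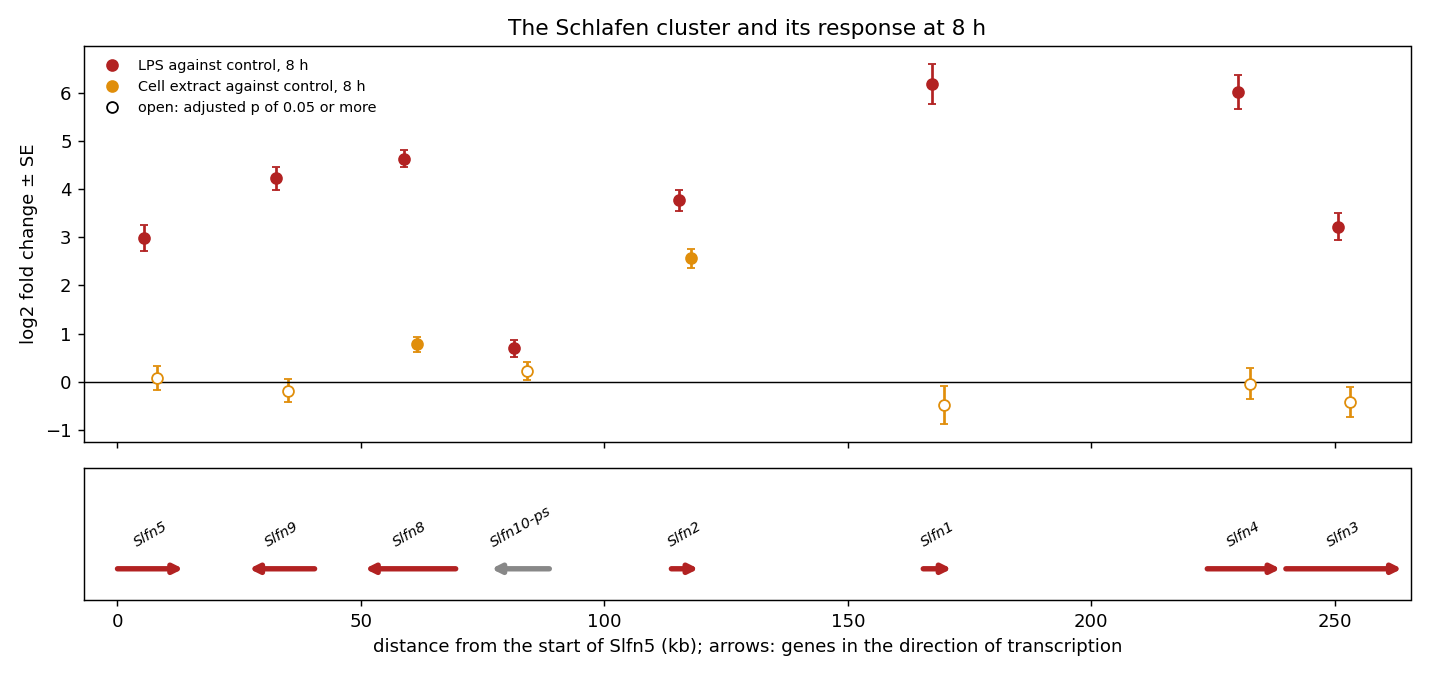
Log2 fold change at 8 h (± SE, edgeR) of the Schlafen genes and Slfn10-ps against distance from the start of Slfn5 (kb), with LPS in red, extract in orange and open symbols for an adjusted p of 0.05 or more. Arrows below give each gene in its direction of transcription; the extract points lie near 0 except for Slfn2 at 2.56 and Slfn8 at 0.77.

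Type I interferon acts through Ifnar1 and Ifnar2, the kinases Jak1 and Tyk2 and a complex that holds Irf9 on its target genes. Of 26 target genes such as Ifit1, Mx1 and Rsad2, all tested, 26 rose with LPS at each time, with median log2 fold changes of 5.39, 5.65 and 3.94 at 8, 24 and 72 h, where the median of all genes was between -0.07 and 0.05. With the extract 6 rose and 2 fell at 8 h (median -0.03), 26 rose at 24 h (median 2.69) and 24 rose at 72 h (median 2.32). At 8, 24 and 72 h 13.0%, 11.7% and 14.2% of all genes rose with the extract, and at 8 h 17.2% fell. Control libraries at 8 h spread widely in some targets, with 9.51 to 156 CPM for Ifit1 and 2.24 to 39.8 CPM for Mx1. Extract libraries at 8 h had 34.4 to 48 CPM for Ifit1 and 5.5 to 7.75 CPM for Mx1. The 8 h counts without the highest control library were not tested. In extract cultures at 8 h Rtp4 and Parp14 rose, by 1.74 and 1.43, and Oas3 fell by 1.98. Slfn2 was 5.92-fold above control in those same extract libraries, and whether interferon had a part in this was not tested.

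Of 20 genes of the pathway itself 17 were tested, and 14, 13 and 12 rose with LPS at 8, 24 and 72 h while 1, 1 and 2 fell, where 21.3%, 18.6% and 16.1% of all genes rose and 24.1%, 19.3% and 15.4% fell. With the extract 8, 11 and 10 rose and 2, 1 and 3 fell, where 13.0%, 11.7% and 14.2% of all genes rose and 17.2%, 10.4% and 12.2% fell. At 8 h the extract raised Irf1, a transcription factor of interferon genes, by 3.04 ± 0.22 and Stat2 by 0.84 (edgeR adjusted p 1.76e-14 and 3.23e-06), whereas Irf7, the factor that amplifies type I interferon, had -0.61 (adjusted p 0.228). At 24 h Irf7 was 3.07 ± 0.40 higher in extract than in control cultures (adjusted p 6.62e-08). Irf7 had 1663 CPM in LPS, 22.47 CPM in extract and 21.91 CPM in IL-4 cultures at 8 h, against 34.15 CPM in control cultures (means). Its control libraries at 8 h ranged widely, from 18.5 to 77.4 CPM. They overlapped those of extract at 16.9 to 24.9 CPM and of IL-4 at 19.3 to 23.7 CPM. The interferon beta gene Ifnb1 had 31 reads over the LPS libraries at 8 h and at most 4 in any other group, too few to be tested. With IL-4 0, 2 and 1 of the 26 targets rose and 2, 3 and 2 fell at 8, 24 and 72 h, where 4.29%, 4.74% and 13.2% of all genes rose and 4.04%, 4.76% and 10.5% fell.

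Genes of the processes that Schlafen proteins are known to touch were read against the same shares of all genes, 21.3% that rose and 24.1% that fell with LPS at 8 h and 16.1% and 15.4% at 72 h. Of 15 cell cycle genes, 3 rose and 2 fell with LPS at 8 h, and 1 rose and 11 fell at 72 h, among them Top2a by 1.47 and Ccnb2 by 3.49. With extract at 72 h 0 rose and 11 fell, where 12.2% of all genes fell, and with IL-4 at 72 h 1 rose and 10 fell, where 10.5% of all genes fell. Control cultures at 72 h had 7 of the 15 above 8 h and 0 below, where 6.38% of all genes were above, and their mesothelial and fibroblast markers were the highest of all groups. Whether the Schlafen genes or such other cells had a part in the cell cycle counts was not tested. Of 12 genes of tRNA handling and translation control, 5 rose and 3 fell with LPS at 8 h and 5 rose and 1 fell at 72 h. The 8 h counts of the cell cycle list, and the fallen ones of the second list, were near or below those shares. Rnh1, the inhibitor of the tRNA-cutting ribonuclease angiogenin, fell with LPS and with extract at every time, at 72 h by 1.46 with LPS and by 0.86 with extract (edgeR adjusted p 5.31e-08 and 0.00146). Eif2ak2, which the list of interferon targets also holds, rose by 1.16 with LPS at 72 h.

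Within the family the closest pattern was that of Slfn1 and Slfn4, with a Spearman rho of 0.972 over the 12 group means and a Pearson r of 0.987 over log2 levels in the 44 libraries, and Slfn5 and Slfn8 had 0.965 and 0.948. Slfn2 and Slfn3 were the least alike (0.615 and 0.724). The points share libraries, depth and control cultures, and these values are descriptions. Among 12505 other tested genes with a mean of at least 1 CPM, the 3 with the highest rho were Irf7, Ifi44 and H2-T22 for Slfn1 (rho 1, 0.993 and 0.986) and H2-T22, Irf7 and Oas2 for Slfn4. For Slfn2 they were Marcksl1, Tnf and Slamf7 (0.986, 0.979 and 0.979). For Slfn5 they included Herc6 and Tifa. They were for Slfn8 Trim30a, Tlr7 and Irf8, for Slfn9 Phf11c, Phf11b and Epsti1, and for Slfn3 Kat2b, Phf11a and Cab39l, with rho from 0.937 to 0.993. Ranked by Pearson r in place of rho, 2 of these 3 remained for Slfn1, 1 for Slfn8 and 0 for each of the other 5.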

How the data were processed

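RNA from 44 cultures was made into libraries with a kit that selects polyA RNA and sequenced as single 50-base reads, per the labels' protocols and the series' design text. The authors deposited whole-number read counts per gene, made with cutadapt, Bowtie2, TopHat2 2.1.1 and HTSeq on mm10, per the submitters' processing notes. Which annotation release and strand setting were used is not given in the sources used here. The 5 summary entries of the counter were left out, and the reads it set aside as ambiguous came to 5.39% of the total. The libraries with over 10% were all replicate 3, of control at 8, 24 and 72 h, extract at 8 and 72 h and LPS at 24 and 72 h. They had 11.1% to 17.3%. Of the gene identifiers 45143 matched a symbol table, which filled 197 missing symbols.

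All 12 groups were fitted together with edgeR 4.0.16 (R 4.3.3): TMM scaling, a filter with a minimum count of 10, and quasi-likelihood tests with 32 residual degrees of freedom, Benjamini-Hochberg adjusted over 14537 genes at 0.05. Levels are TMM-scaled CPM, and CPM per kb divides by the exon length in GENCODE M21 (GRCm38). Intervals are 95% intervals of the fitted log2 value. Alternatives were DESeq2 1.42.0, other scaling, no filter, the compared groups alone, each replicate left out and a replicate block. Leaving out libraries with over 10% ambiguous reads, libraries under 2 M counts, or the high replicates 1 of control at 8 and 24 h was tried as well, some of it chosen after seeing the data.

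The numbers pair the samples where there were at least 3 same-numbered pairs and every pair deviated together with a correlation over 0.1, which was so for LPS and extract against control at 8 and 24 h, extract against LPS at 24 h and control at 24 h against 8 h. The main fit has no replicate term, so the SE and p-values given from it leave this pairing out. The members and gene lists were chosen with earlier results of these data known. The genes named are the members, the leading genes of each list by p, and the 3 genes most like each member. Ifnb1, the flanking genes and the extract values of Irf7 were chosen after their values were seen. A few genes that this rule names are not reported here.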

Additional observations from a re-analysis of the deposited data

Results flagged for a closer look

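The 8 groups of 4 libraries were screened for each of the 7 genes, which gave 56 cases that share libraries. In 10 of them 1 library lay far from the other 3, where chance flags about 1 in 20 groups. Control 8 h replicate 1 was the high library for Slfn1 (18.2 CPM), Slfn4 (22.1 CPM) and Slfn3 (4.58 CPM), and control 24 h replicate 1 for Slfn1 (4.94 CPM) and Slfn4 (11.4 CPM). IL-4 24 h replicate 1 was the high library for Slfn1 (6.54 CPM) and Slfn4 (9.8 CPM). For Slfn3 it was LPS 72 h replicate 3 (9.15 CPM). The low libraries were IL-4 24 h replicate 2 for Slfn2 (134 CPM) and extract 8 h replicate 2 for Slfn5 (85.3 CPM).

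The effect of a stimulus differed between 72 h and 8 h in the test of the difference itself for 11 values. For LPS the log2 difference was -1.40 for Slfn2, -2.46 for Slfn3, -1.62 for Slfn5, -2.46 for Slfn8 and -3.97 for Slfn9. For the extract it was 4.93 for Slfn1, -1.12 for Slfn2, 1.46 for Slfn3, 3.71 for Slfn4, 1.09 for Slfn5 and 0.74 for Slfn8.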

How the results depend on the processing

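No member changed sign past the threshold. Among the members' fold changes, 1805 alternative values kept direction and call, 65 lost the call, 28 gained it and 76 others moved, and for the counts of members called 526 stayed and 38 moved. The cause of these changes was not tested. With the compared groups alone, the extract effects that rose from 8 to 72 h numbered 3 in place of 5, and 0 in place of 2 members fell with IL-4 at 8 h. RLE scaling gave 3 such extract effects. DESeq2 called 2 in place of 1 with IL-4 at 24 h. With no filter on low counts, 1 member fell in control at 24 h and 2 at 72 h against 8 h, 2 fell with IL-4 at 24 h and 1 at 72 h, and the effects that rose numbered 2 for IL-4 and 1 for LPS, where 0 had. Without the libraries rich in ambiguous reads, 2 extract effects rose and 0 fell in place of 1, and with IL-4 0 members fell at 24 h and 1 at 72 h. Without the libraries under 2 M counts, 2 extract effects rose and 0 members fell with IL-4 at 72 h. Without the high replicates 1 of control, 2 extract effects rose, and 1 member rose in control at 72 h. The replicate block called 1 IL-4 effect, that of Slfn5 (1.07, edgeR adjusted p 0.0493), and moved no other count of members by over 1.5 times. Where the numbers do not pair the samples they share only a number.

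Leaving out 1 library at a time gave 2 to 5 extract effects that rose, 0 to 1 members that fell in control at 24 h, 0 to 2 that fell and 0 to 1 that rose in control at 72 h, 0 to 3 that fell with IL-4 at 72 h and 0 to 2 IL-4 effects that rose. Over all genes, the compared groups alone gave 2318 in place of 1509 that fell with extract at 24 h, 2286 in place of 1274 lower and 1996 in place of 1172 higher with extract than with LPS at 24 h, 1349 in place of 2232 that fell and 1438 in place of 2344 that rose with LPS at 72 h, 223 in place of 587 that fell and 392 in place of 624 that rose with IL-4 at 8 h, 413 in place of 692 and 401 in place of 689 at 24 h, and 657 in place of 1383 IL-4 effects that rose. Without the ambiguous-rich libraries 1636 in place of 2494 fell with extract at 8 h, 951 in place of 1651 were lower with extract than with LPS at 72 h and 1242 in place of 1908 extract effects rose. DESeq2 gave 1485 in place of 955 IL-4 effects that fell and RLE scaling 921 in place of 1383 that rose. In control at 72 h against 8 h, 1041 fell, against 336 with the compared groups alone, 638 with RLE and 588 without the high replicates. In control at 24 h against 8 h the count that fell was 31 and ranged over 4 to 284, and the count that rose was 47 and ranged over 15 to 168. Low counts limit Slfn3, with 3 to 141 reads per library at 72 h. They also limit the control libraries at 72 h, with 5 to 10 reads on Slfn1 and 11 to 16 on Slfn4. In IL-4 at 8 h Slfn1 had 4 to 16 reads per library.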
